A study of Macaca mulatta with 35 samples.

Results

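The 100 transcripts described here were higher in both cumulus cells and oocytes of rhesus monkey antral follicles than in granulosa cells. They were chosen by their level in the deposited tables, out of 49537 transcript IDs. A transcript qualified if it had a mean of at least 50 estimated counts in cumulus cells and in oocytes, if its mean log2(TPM + 1) differed by less than 1 between these 2 cell types, and if the lower of the 2 exceeded the granulosa mean by more than 1. TPM, the second value of the tables, is a level corrected for transcript length and library total. The excess over granulosa is called the gap below. Of 14817 transcripts with enough counts, 409 qualified, leaving aside 4 very abundant IDs excluded by the rule, and the 100 with the largest gap were taken.

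The series asks how gene expression changes as nonhuman primate antral follicles grow. Cumulus cells, granulosa cells and oocytes were isolated from individual small, medium and large antral follicles of ovaries from adult females, collected at necropsy, and no treatment or genetic change is given for any group. Cell type and follicle size gave 9 groups with 4 libraries each, except small-follicle cumulus cells with 3, for a total of 35. PicoPure extraction was followed by amplification (Ovation RNA-Seq System v2), so counts are not independent molecules. The labels do not say which libraries share an animal or follicle, and p-values here measure the spread between libraries, which may be partly technical. Each library is named after its cells, its follicle size and its title's number.

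In an antral follicle the cumulus cells surround the oocyte and touch it through fine projections that cross the zona pellucida and end in gap junctions, while the granulosa cells of the wall lie against the basement membrane. The oocyte secretes growth factors such as GDF9 and BMP15 that act on the cumulus cells next to it, and cumulus cells supply the oocyte with metabolites in return. Both populations of somatic cells descend from the same granulosa lineage and diverge as the antrum forms. The files do not pair transcript IDs with genes, and 0 of the 100 IDs matched the gene tables used here. The transcripts are therefore given by ID, with no function and no sequence, and the label of each cell type could not be checked against marker genes.

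Total estimated counts ran from 20780476 to 52350387 per library. A set of 704 transcripts that predominate in the oocyte libraries, none of them among the 100, held 3.79% to 10.05% of counts in oocytes and at most 0.472% in cumulus and 0.350% in granulosa libraries. Its share was over 0.2% in cumulus small 1 and 2, medium 2 and large 3 and in granulosa medium 4 and large 1. Without these libraries 84 of the 100 were still chosen by the rule, and the median gap was 1.73 in place of 1.60. The oocyte large 2 library also stood apart, with 0.954% of its counts in the 100 transcripts against 0.261% to 0.425% in the other 11 oocyte libraries. Leaving it out, 90 of the 100 were chosen again.

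Levels by cell type describe the choice and carry no test. The median over the 100 transcripts of the mean level was 14.6 TPM in cumulus cells, 16.6 TPM in oocytes and 3.94 TPM in granulosa cells. Over all 14817 transcripts with enough counts the same medians were 3.76, 6.01 and 2.56 TPM. Mean levels of single transcripts ran from 3.30 to 785 TPM in cumulus cells, from 4.17 to 1327 TPM in oocytes and from 0.402 to 380 TPM in granulosa cells. In these bulk libraries, fewer cells that express a transcript and less RNA of it per cell cannot be told apart. On the log2(TPM + 1) scale the median difference from granulosa was 1.67 for cumulus cells and 1.95 for oocytes. Oocytes had the higher mean of the pair in 64 transcripts and cumulus cells in 36.

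**Figure D1:**
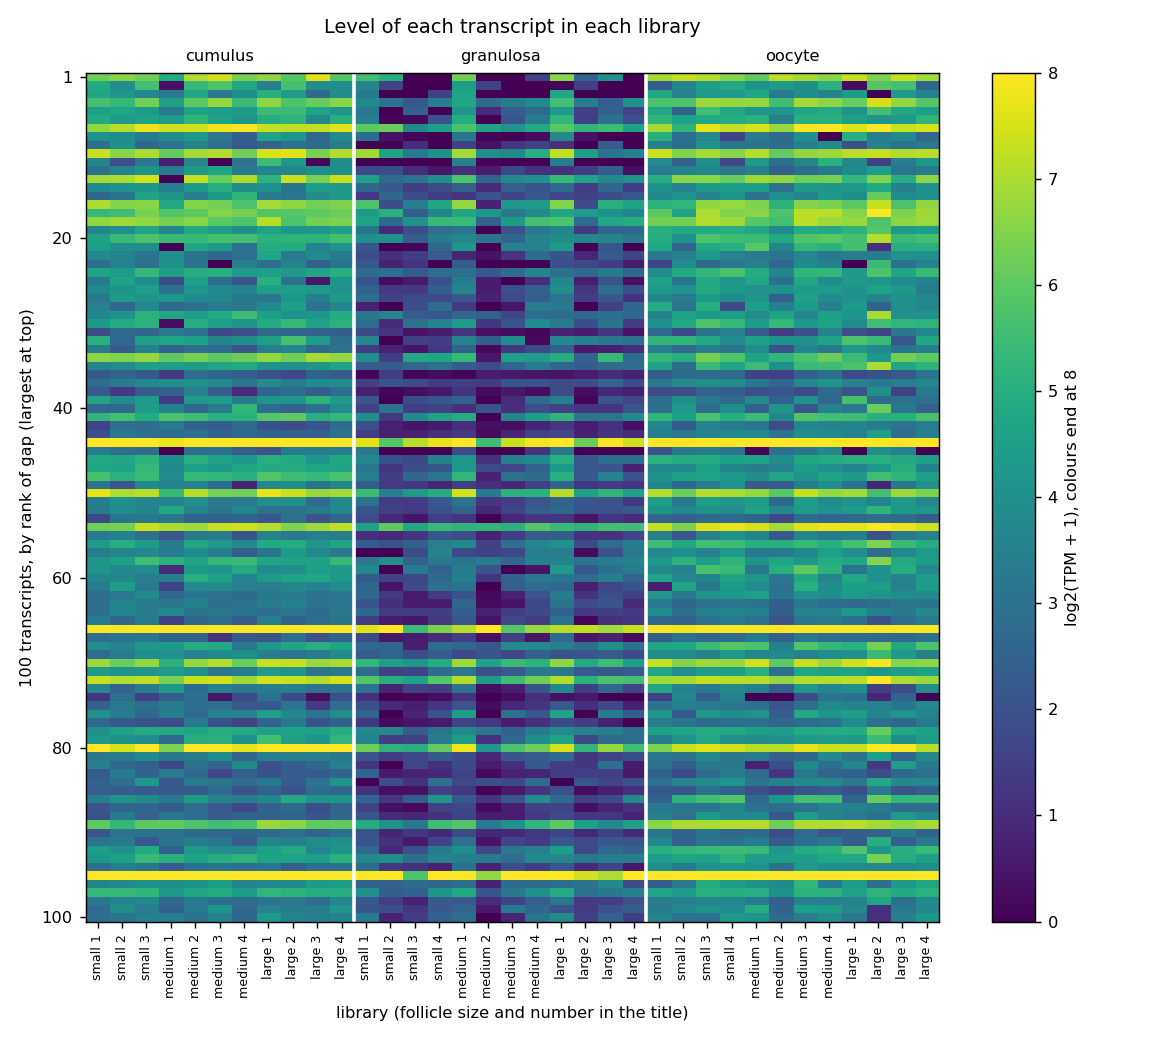
Level of each of the 100 transcripts (rows, by rank of gap) in each of the 35 libraries (columns), as log2(TPM + 1), with colours ending at 8. Granulosa libraries held 2 to 54 of the transcripts under 1 TPM, against at most 7 in a cumulus and 3 in an oocyte library.

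The gap ran from 1.36 at rank 100 to 3.81 at rank 1. ENSMMUT00000043738.3, the first by gap, is 423 bases long. Its level was 28.5 to 202 TPM in cumulus libraries (median 80.8) and 64.4 to 157 TPM in oocyte libraries (median 123). In granulosa it was at 0 in 5 of 12 libraries and between 2.07 and 31.8 TPM in 4, and it reached 45.5, 77.2 and 94.9 TPM in the 3 libraries numbered 1. All 3 lay inside the cumulus range, as did granulosa small 2 at 31.8 TPM, and the higher pair also inside the oocyte range. This transcript also had the widest spread between granulosa libraries among the 100, with an SD of 2.71 on the log2(TPM + 1) scale.

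ENSMMUT00000003793.4, of 1128 bases and ranked 2, had a mean of 26.9 ± 17.9 TPM in cumulus cells (SD, n = 11), 21.4 ± 17.5 TPM in oocytes (n = 12) and 3.18 ± 6.43 TPM in granulosa cells (n = 12). Only granulosa small 1 and medium 1, at 11.4 and 20.8 TPM, exceeded 2.14 TPM among the granulosa libraries. Cumulus medium 1 and oocyte large 1, at 0.316 and 0.190 TPM, were as low as granulosa, so the cell types overlapped.

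ENSMMUT00000078738.2, of 960 bases and ranked 3, showed the same split inside granulosa. It was at 8.13, 24.5 and 24.9 TPM in the libraries numbered 1 and at 0 to 1.96 TPM in the other 9, with 7 of them at 0. Cumulus libraries held 5.73 to 32.8 TPM and oocyte libraries 8.80 to 27.0 TPM, except oocyte large 2 at 0. For ENSMMUT00000070393.2, of 3506 bases and ranked 8, the granulosa libraries numbered 1 were at 6.36, 7.82 and 12.6 TPM and no other exceeded 0.319 TPM.

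Ranks 4 to 7 had no more than 1 granulosa library at 0. ENSMMUT00000101212.1, of 436 bases, had a granulosa mean of 13.5 ± 12.2 TPM, against 64.9 ± 26.9 in cumulus cells and 91.7 ± 38.1 TPM in oocytes. ENSMMUT00000055384.2, at 24.3 ± 10.5 TPM in cumulus cells and 25.3 ± 12.1 in oocytes, had 5.68 ± 6.19 TPM in granulosa. ENSMMUT00000041204.3 had 25.4 ± 7.90, 26.8 ± 8.32 and 8.72 ± 12.3 TPM in cumulus cells, oocytes and granulosa. ENSMMUT00000098349.1 was among the more abundant, with a granulosa range of 12.2 to 71.7 TPM, a cumulus range of 98.1 to 240 and an oocyte range of 35.8 to 607 TPM. In each of the 4 the granulosa range overlapped that of at least 1 other cell type.

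Transcripts ranked 9 to 20 had gaps from 1.94 to 2.21. ENSMMUT00000042878.3, of 345 bases, had 110 ± 56.5 TPM in cumulus cells, 75.9 ± 28.4 in oocytes and 18.99 ± 14.2 in granulosa. ENSMMUT00000073366.2, of 3600 bases, had 64.6 ± 15.7, 115 ± 80.9 and 17.1 ± 8.10 TPM in the same order. For ENSMMUT00000020475.4 the granulosa mean was 0.996 ± 1.21 TPM, against 7.42 ± 3.19 TPM in cumulus cells and 8.79 ± 3.44 TPM in oocytes. ENSMMUT00000056960.2, ranked 12, was one of the transcripts with no overlap at all: its highest granulosa library was at 3.98 TPM, its lowest cumulus library at 6.93 TPM and its lowest oocyte library at 4.41 TPM. ENSMMUT00000012857.4, ranked 11, was at 0 in 8 granulosa libraries and at 10.2 and 9.19 TPM in granulosa medium 1 and large 1.

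The 5 transcripts with the highest mean TPM had gaps from 1.38 to 2.31, and in each of them some granulosa libraries were well above 0. ENSMMUT00000014676.3, of 309 bases, was at 373 to 1140 TPM in cumulus libraries (median 806), at 54.0 to 961 TPM in granulosa libraries (median 358) and at 833 to 3586 TPM in oocyte libraries (median 1171). The 3586 TPM came from oocyte large 2, and the next oocyte library was at 1430. ENSMMUT00000099408.1, of 1941 bases, was at 329 to 815 TPM in cumulus libraries. It was at 44.0 to 247 TPM in 11 granulosa libraries and at 934 TPM in granulosa small 2, above every cumulus library. In oocytes it ran from 221 to 514 TPM, with oocyte large 2 apart at 1643 TPM.

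ENSMMUT00000073376.2, of 318 bases, was at 223 to 748 TPM in cumulus libraries and at 322 to 882 TPM in oocyte libraries. Its granulosa libraries ran from 44.4 to 403 TPM, with the 3 numbered 2 the lowest, at 44.4, 58.9 and 72.0 TPM. ENSMMUT00000038806.3, of 380 bases, had 256 ± 71.2 TPM in cumulus cells, 174 ± 47.4 in oocytes and 79.1 ± 62.5 in granulosa cells. The estimated counts of this pair were whole numbers in every library.

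In 12 of the 100 transcripts every cumulus and every oocyte library was above every granulosa library, which held for 0.567% of the 14817 transcripts. This describes the choice and is no result about the 100. Every cumulus library was above every granulosa library in 24 of them (1.61% of all), and every oocyte library in 20 (23.7% of all). In 1 of the 100 the cumulus and oocyte libraries did not overlap each other, against 26.8% of all. The rule required the means of these cell types to be close, so this low count describes the choice too. Against the granulosa libraries numbered 2 to 4 alone, the count of 12 became 41 (3.49% of all).

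The 12 transcripts without overlap had granulosa SDs from 0.28 to 0.60 on the log2(TPM + 1) scale. ENSMMUT00000086604.1, of 2489 bases, had the lowest of the 100. Its granulosa libraries held 2.24 to 4.91 TPM, cumulus libraries 5.91 to 15.7 and oocyte libraries 10.1 to 42.5 TPM. ENSMMUT00000090433.1, of 3504 bases, was the most abundant of the 12, at 23.1 to 64.3 TPM in granulosa, 75.9 to 167 TPM in cumulus and 84.5 to 683 TPM in oocyte libraries. ENSMMUT00000040600.3, of 1527 bases, whose counts were whole numbers, was at 3.48 to 11.4 TPM in granulosa, 18.8 to 39.1 in cumulus and 11.6 to 53.1 TPM in oocyte libraries.

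The boundary at rank 100 was not a break. The last 5 inside had gaps of 1.37, 1.37, 1.36, 1.36 and 1.36, among them ENSMMUT00000012801.4 and ENSMMUT00000022821.4. The first 5 outside had gaps of 1.35, 1.35, 1.35, 1.35 and 1.35, among them ENSMMUT00000107225.1 and ENSMMUT00000012667.4.

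The size of the gap depended on how libraries were scaled. The most abundant transcript of the tables, one of the 4 excluded, held 19.8% to 43.2% of counts in granulosa libraries, 12.9% to 20.4% in cumulus and 6.08% to 10.2% in oocyte libraries. The other 3 ran the opposite way, with means of 7.25%, 21.2% and 25.5%. Their part in the gap was not tested. Dividing TPM by TMM factors, which align the bulk of transcripts between libraries, moved the median cumulus minus granulosa difference over all 14817 transcripts from 0.41 to -0.06 and the oocyte minus granulosa difference from 0.83 to 0.20. For the 100 these medians moved from 1.67 to 1.14 and from 1.95 to 1.21. Their median gap fell from 1.60 to 1.01. The gap was still above 0 in all 100, against 28.0% of all, and above 1 in 51, against 100 of all 14817. The rule took the largest gaps on the same libraries, so these counts describe the choice. The count with no overlap fell from 12 to 1 under this scaling, and over all 14817 from 84 to 4.

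**Figure D2:**
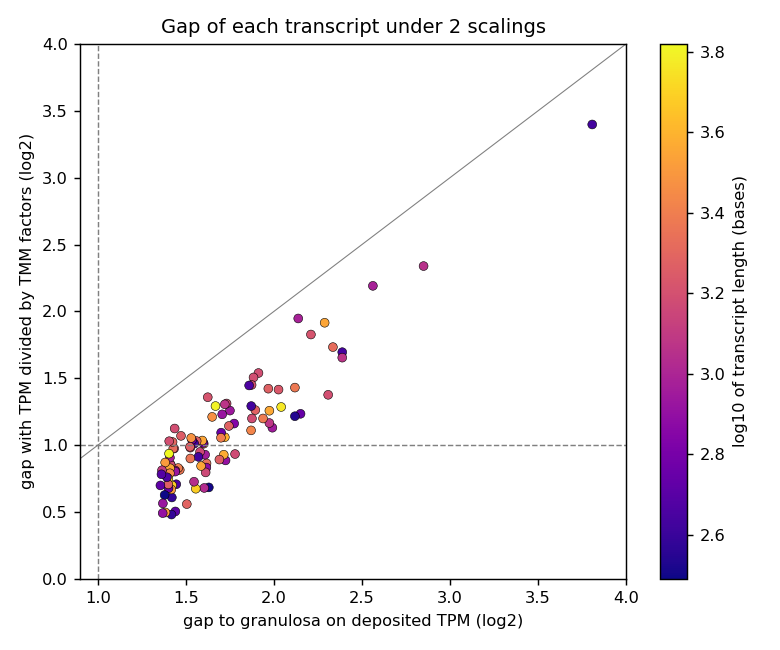
Gap of each of the 100 transcripts (points) on deposited TPM (x axis, log2) and with TPM divided by TMM factors (y axis, log2), coloured by transcript length. Dashed lines mark a gap of 1 and the solid line equal values. Points lie below the solid line, with a median of 1.01 on the y axis against 1.60 on the x axis.

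The opposite pattern, higher in granulosa cells and oocytes than in cumulus cells, was rarer on deposited TPM and more common after TMM scaling. With the same thresholds 31 transcripts qualified for it on TPM, against 409 for higher levels in cumulus cells and oocytes. After TMM scaling 179 qualified for it, against 57. The order of the 2 counts was therefore reversed by the scaling.

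The 100 transcripts were short. Their median length was 1538 bases, against 2930 for the 14817, and 14 were under 500 bases (1.20% of all). When all were split into 5 classes of nearly equal size by length, the shortest class, up to 1796 bases, held 61 of the 100, and the longest held 5. The share of transcripts with a gap over 1 was 10.1% in the shortest class and 1.96% in the longest. Estimated counts were whole, within 1e-06, in every library for 9 of the 100 (8.85% of all). For the others, where reads are divided among transcripts, a level near 0 can reflect that division. Length was no criterion of the rule, but TPM is corrected for length, so the choice was not independent of it. Its part in the gap was not tested.

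For the 100 transcripts, granulosa libraries had a wider spread than cumulus or oocyte libraries. The median SD of log2(TPM + 1) over the 100 was 0.81 between granulosa, 0.50 between cumulus and 0.58 between oocyte libraries, against 0.48, 0.43 and 0.53 over all 14817. In 62 of the 100 granulosa had the widest spread of the 3 cell types, compared with 30.7% of all. A granulosa library was at 0 in 22 of the 100 (10.3% of all), and a cumulus or an oocyte library in 3 each (8.42% and 9.81% of all). Within follicle size groups of granulosa, the mean pairwise correlation of deviations between the 100 was 0.24, on TMM-scaled log2 levels, against 0.01 over all. The values were 0.11 in cumulus and 0.04 in oocytes, against 0.03 and 0.01 over all. The rule used the granulosa levels, and libraries at or near 0 lower the granulosa mean. The granulosa spread of the 100 is therefore not independent of the choice. These transcripts share libraries and scaling, and no p is given.

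The granulosa libraries numbered 1 were the highest at each follicle size. The mean of log2(TPM + 1) over the 100 was 2.92, 3.34 and 3.51 in granulosa small 1, medium 1 and large 1, and 1.45 to 2.72 in the other 9. Cumulus libraries ran from 3.66 to 4.45 and oocyte libraries from 3.75 to 4.68. With TMM scaling the libraries numbered 1 exceeded the others by a median of 0.74 over the 100 and by -0.02 over all. Those numbered 2 differed from the rest by -0.64 over the 100 and by 0.02 over all. By mean TPM in granulosa, number 1 was the highest of the 4 in 74 of the 100 transcripts (48.8% of all) and number 2 the lowest in 66 (36.3% of all). After TMM scaling these counts were 65 (28.4% of all) and 56 (27.6% of all). The comparison of numbers was made after the values were seen, and the rule used these granulosa levels. The contrasts between the 100 and all transcripts are therefore not independent of the choice.

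**Figure D3:**
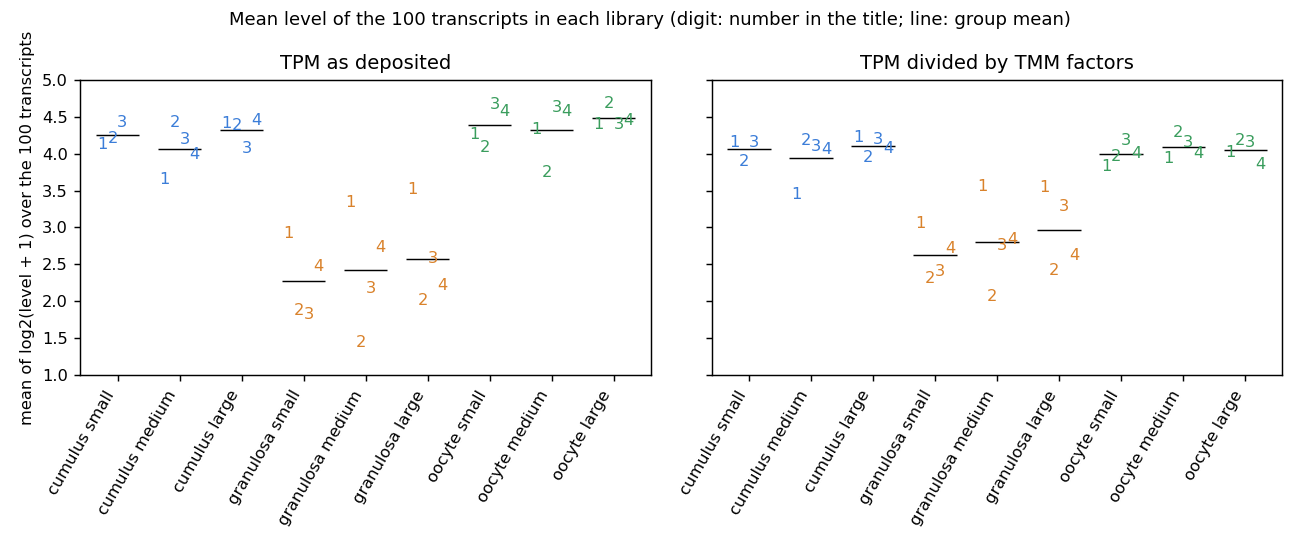
Mean of log2(level + 1) over the 100 transcripts in each library (digits: number in the title; lines: group means), by cell type and follicle size, on deposited TPM (left) and after TMM scaling (right). On deposited TPM the granulosa libraries numbered 1 lie at 2.92, 3.34 and 3.51, and every cumulus and oocyte library lies higher; after TMM scaling cumulus medium 1, at 3.45, lies below granulosa medium 1 at 3.55 and large 1 at 3.54.

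Whether the level of a transcript differed between the 4 numbers was tested with edgeR's quasi-likelihood F test, with follicle size in the model. This test was added after the values were seen, and the labels do not say what a number stands for. In granulosa, 10 of 99 transcripts tested differed at an adjusted p under 0.05 (10.1%), against 4.64% of all tested. The rule used the levels of these granulosa libraries, so this count is not independent of the choice. In oocytes 1 of 100 differed (background 0.282%), and in cumulus cells 0 of 100 (background 0%), with 13 at an unadjusted p under 0.05 (2.64% of all). Among the 10, number 1 had the highest mean in 7 and number 4 in 3, and number 2 had the lowest in 8. Without the granulosa libraries numbered 1, none was called by edgeR, against 0.102% of all, with 23 of 96 at an unadjusted p under 0.05 (16.8% of all) and a lowest adjusted p of 0.0560. Without those numbered 4, none was called either, against 0% of all, with 43 of 99 at an unadjusted p under 0.05 (21.8% of all). Without those numbered 2, 1 was called (0.149% of all), and without granulosa medium 4 and large 1, 2 were called (0.453% of all). Calls over all transcripts thus fell with those of the members, while without those numbered 3 there were 10 (5.53% of all). The oocyte call was lost without number 1, 3 or 4, where 0.038%, 0.031% and 0.00347% of all were called.

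ENSMMUT00000009535.4, of 552 bases, had 116, 119 and 148 TPM in the granulosa libraries numbered 1 and 7.32 to 31.4 TPM in the other 9 (edgeR adjusted p = 0.00888). Cumulus libraries held 66.0 to 197 TPM and oocyte libraries 66.7 to 165 TPM, so the granulosa libraries numbered 1 lay inside both ranges. ENSMMUT00000110339.1, of 2115 bases, was at 4.93, 20.8 and 23.6 TPM in the libraries numbered 1 and at 0 in all 3 numbered 2 (edgeR adjusted p = 0.0262). The cumulus libraries numbered 2 held 9.52, 6.002 and 12.4 TPM of it.

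ENSMMUT00000110030.1, of 2772 bases, did not follow number 1. It was at 17.6, 14.1 and 13.0 TPM in the granulosa libraries numbered 4 and at 1.32 to 5.71 TPM in the other 9 (edgeR adjusted p = 0.00775). In oocytes it was the transcript called among the 100 (edgeR adjusted p = 0.0123): the libraries numbered 1 were at 4.42, 5.65 and 4.97 TPM and the other 9 at 17.4 to 69.0 TPM. Cumulus libraries held 8.41 to 28.4 TPM, with no call. ENSMMUT00000013155.4, of 1197 bases, had its 3 lowest granulosa values in the libraries numbered 2, at 5.85, 4.55 and 6.01 TPM, against 16.1 to 52.1 TPM in the others (edgeR adjusted p = 0.0202). ENSMMUT00000110339.1 and ENSMMUT00000110030.1 were named after their values were seen.

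**Figure D4:**
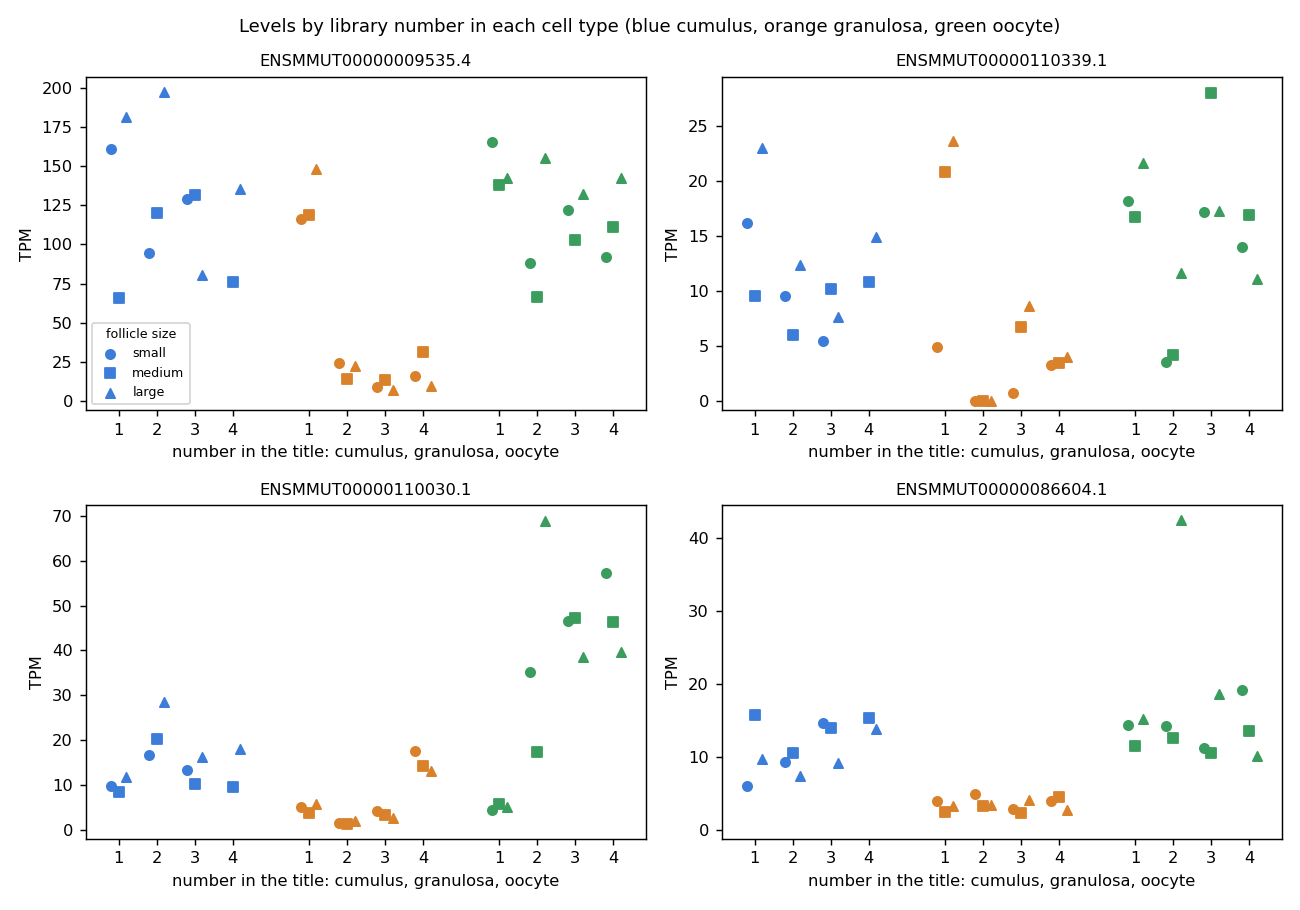
TPM (y axis) of 4 transcripts in each library, by number in the title within cumulus (blue), granulosa (orange) and oocyte (green) libraries, with marker shape for follicle size. ENSMMUT00000009535.4 is high in granulosa number 1, ENSMMUT00000110339.1 is at 0 in granulosa number 2, ENSMMUT00000110030.1 is high in granulosa number 4 and low in oocyte number 1, and ENSMMUT00000086604.1 is the transcript with the lowest granulosa spread.

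Other values moved with the number in granulosa. The most abundant transcript held 26.3%, 21.8% and 19.8% of counts in the libraries numbered 1 and 27.3% to 43.2% in the other 9. The remaining 3 excluded transcripts held 10.3%, 15.1% and 13.9% in number 1, 1.63%, 0.666% and 2.13% in number 2 and 4.43% to 11.6% in numbers 3 and 4, against 16.1% to 26.2% in cumulus libraries. The oocyte-predominant set held 0.0244%, 0.0268% and 0.350% in number 1. Their part in the result was not tested.

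Follicle size was not used by the rule and was tested within each cell type. The number in the title was not in the model. No member of the 100 was called in any of the 9 size comparisons by edgeR at an adjusted p under 0.05. In cumulus cells 0 of 100 were called in each (background 0%), with 3 at an unadjusted p under 0.05 between medium and small, 0 between large and medium and 2 between large and small (3.69%, 3.66% and 3.73% of all). In the same order, in granulosa 0 of 99 were called, against a background of 0.00348%, 0% and 0.00348%, with 1, 0 and 1 at an unadjusted p under 0.05 (2.28%, 1.09% and 2.17% of all). In oocytes 0 of 100 were called in each (background 0%), with 0, 0 and 6 at an unadjusted p under 0.05 (1.26%, 2.12% and 1.90% of all). DESeq2 also called 0 in all 9, against 0.643%, 0.342% and 0.596% of all in cumulus cells, 0.094%, 0.129% and 0.143% in granulosa and 0.129%, 0.139% and 0.153% in oocytes. On simulated counts, the large against small test recovered 6% of 4-fold changes in cumulus cells, 4% in granulosa cells and 10% in oocytes. These changes were planted in transcripts drawn from all those tested, where most were missed. The median SE of the members was 0.391 in cumulus cells, 0.753 in granulosa and 0.395 in oocytes, against 0.649, 0.688 and 0.659 over all. Recovery for transcripts like the members was not measured.

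The median log2 difference between large and small follicles over the members was 0.37 in granulosa, 0.04 in cumulus cells and 0.10 in oocytes. It was -0.02, -0.01 and -0.02 over all transcripts tested. In granulosa 76 of 99 had a higher estimate in large follicles, compared with 48.3% of all, with no single call. The granulosa shift rested in part on single libraries. Its median was 0.10, with 56 of 99 higher, without granulosa large 1, and 0.10 without the libraries over 0.2%. It was 0.23 without large 3 and 0.24 without small 3. The small medians of the other cell types changed sign: cumulus cells were at -0.10 without the libraries over 0.2%, -0.01 without cumulus large 1 and -0.02 without cumulus small 2, and oocytes at -0.01 without oocyte large 2.

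**Figure D5:**
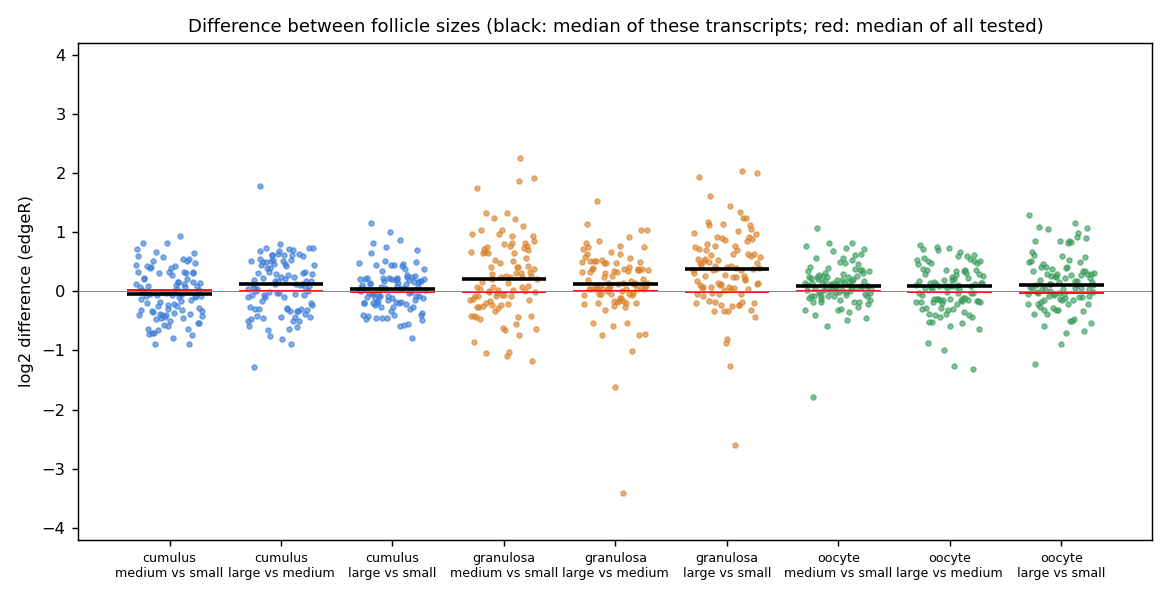
Log2 difference between follicle sizes (y axis, edgeR) of each member tested (points) in the 9 comparisons, with the median of the members (black) and of all transcripts tested (red). The black line lies at 0.37 for granulosa large against small (0.10 without granulosa large 1), and no point passed the adjusted threshold.

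ENSMMUT00000106822.1, of 1107 bases, had the smallest p among the 100 for large against small in both somatic cell types. In cumulus cells it was at 10.8 ± 1.23 TPM in small (SD, n = 3), 18.9 ± 10.4 in medium and 21.9 ± 3.54 in large follicles (n = 4 each), which is 0.996 on the log2 scale (SE 0.41). In granulosa it was at 3.45 ± 1.69, 6.11 ± 3.87 and 7.09 ± 2.22 TPM, a difference of 1.13 with an SE of 0.48 (0.72 without granulosa large 3). In oocytes the difference was -0.02 with an SE of 0.38. The edgeR adjusted p was 1 in both somatic cell types, and the groups overlapped in granulosa.

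For medium against small follicles in cumulus cells the smallest p belonged to ENSMMUT00000022821.4, at 38.9 ± 1.73 TPM in small and 23.8 ± 5.08 TPM in medium follicles (log2 difference -0.66, SE 0.24, edgeR adjusted p = 1). In large against medium cumulus cells it was ENSMMUT00000107301.1, at 0.71 on the log2 scale (SE 0.33). The granulosa counterparts were ENSMMUT00000063293.2 for medium against small (0.96, SE 0.44) and ENSMMUT00000095384.1 for large against medium (1.14, SE 0.80). They were 0.52 without granulosa medium 1 and 0.58 without granulosa large 1. In oocytes ENSMMUT00000090433.1 had the smallest p for large against small, at 319 ± 243 against 160 ± 56.6 TPM (log2 0.98, SE 0.39), and without oocyte large 2 the log2 difference was 0.33. For medium against small it was ENSMMUT00000098349.1 (0.81, SE 0.46; 0.54 without oocyte small 2) and for large against medium ENSMMUT00000085741.1 (-1.27, SE 0.65). None of these differences passed the adjusted threshold.

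Whether the change from small to large follicles differed between cell types was tested as an interaction, and edgeR called 0 of 100 in each of the 3 pairs of cell types. The backgrounds were 0.0029% for cumulus against granulosa, 0.011% for cumulus against oocyte and 0.00291% for granulosa against oocyte. At an unadjusted p under 0.05 there were 0, 0 and 2 of them (3.87%, 5.31% and 5.28% of all). The smallest p belonged to ENSMMUT00000100191.1 for cumulus against granulosa (-1.04, SE 0.58), to ENSMMUT00000109621.1 for cumulus against oocyte (-1.01, SE 0.48; -0.44 without oocyte large 2) and to ENSMMUT00000012857.4 for granulosa against oocyte (8.41, SE 3.43). The last of these turned to -0.20 without granulosa large 1, where this transcript was at 9.19 TPM, the other large granulosa libraries being at or near 0. All 4 small granulosa libraries were at 0, so these fitted values depend on the prior and are no measure of size, and the transcript did not pass the count filter within granulosa. DESeq2 called 1 of 100 for cumulus against granulosa (background 0.973%) and 1 for granulosa against oocyte (background 1.37%), in both cases ENSMMUT00000012857.4. It called 0 for cumulus against oocyte (background 1.4%).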

How the data were processed

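Per the submitters' processing notes the authors used bcl2fastq 2.19.1 and kallisto 0.44.0. The genome build, like the annotation, is not given in the sources used here. The deposited estimated counts and TPM per transcript come from kallisto, per the file headers. Estimated counts were rounded for tests and TPM served as level, with a pseudocount of 1 on the log2 scale. The members and lists were chosen with earlier results of these data known. Tests used edgeR 4.0.16 in R 4.3.3 (quasi-likelihood, robust, TMM, a minimum count of 10, Benjamini-Hochberg over all transcripts tested, threshold 0.05), with transcripts in place of genes. They were fitted per cell type, except the interactions, each fitted on the libraries of both its cell types together. Scripts were tested on simulated data. DESeq2 1.42.0, limma 3.58.1, other factors and filters and leaving out each library were alternatives.

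Lists for naming were the 20 with the largest gap, the 5 most abundant, the 5 on each side of rank 100, the smallest p in each comparison and the lowest and highest granulosa SD. Not all of the 5 on each side of rank 100 are named. ENSMMUT00000040600.3, ENSMMUT00000110339.1 and ENSMMUT00000110030.1 were named outside these lists. Same-numbered granulosa libraries of different follicle sizes deviated together, with correlations of 0.24 to 0.62, so the numbers pair them, although the labels do not say what they mark. In oocytes they did so for medium and small (0.27 to 0.46) and for large and small follicles (0.14 to 0.27), and not in cumulus cells. Oocyte large and medium follicles gave 0.08 to 0.39. Between different numbers the highest oocyte values were 0.09, -0.01 and 0.05 in the same order. In granulosa the highest was 0.31, for large and small follicles, where the lowest between the same numbers was 0.30.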

Additional observations from a re-analysis of the deposited data

Results flagged for a closer look

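Within groups of 4 libraries, 175 checks were made, on the 20 transcripts with the largest gap and on 2 measures per library, for a library far from the other 3. They found 21 such cases. For independent, normally distributed values chance gives about 1 in 20 groups, and TPM values with zeros, of transcripts that share libraries, need not follow that rate. No explanation was tested.

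Oocyte large 2 was involved in 6. Its mean log2(TPM + 1) over the 100 transcripts was 4.681, against 4.394 to 4.442 in the other large oocyte libraries, and it held 0.9536% of counts in them, against 0.3664% to 0.393%. It had 607.3 TPM of ENSMMUT00000098349.1 (others 158.5 to 192.8), 68.37 TPM of ENSMMUT00000027528.4 (13.77 to 15.75), 137.5 TPM of ENSMMUT00000109621.1 (40.62 to 48.17) and 0 TPM of ENSMMUT00000078738.2 (11.16 to 19.28).

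Granulosa libraries numbered 1 were far above the other 3 of their size in 7. For ENSMMUT00000078738.2 they were medium 1 at 24.51 TPM and large 1 at 24.94 TPM, with the others at or near 0. For ENSMMUT00000070393.2 they were small 1 at 6.362, medium 1 at 7.824 and large 1 at 12.61 TPM, with the others at most 0.3194. For ENSMMUT00000012857.4 they were medium 1 at 10.15 and large 1 at 9.193 TPM, with the others at most 0.07682.

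Oocyte medium 2 was low in 4: 9.615 TPM of ENSMMUT00000041204.3 (others 31.46 to 34.49), 7.164 of ENSMMUT00000088876.1 (18.01 to 20.93), 34.29 of ENSMMUT00000076523.2 (83.6 to 89.89) and 13.15 of ENSMMUT00000040874.3 (26.47 to 29). In that library the 3 excluded transcripts other than the most abundant held 53.98% of counts, against 5.204% to 33.69% in the other oocyte libraries.

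The remaining 4 were cumulus medium 1 at 8.329 TPM of ENSMMUT00000055384.2 (others 20.41 to 23.75) and at 0 TPM of ENSMMUT00000042878.3 (68.91 to 152.3), granulosa large 2 at 1.738 TPM of ENSMMUT00000003793.4 (others at most 0.09674) and granulosa small 3 at 1.018 TPM of ENSMMUT00000020475.4. In the last case the other small granulosa libraries were at most 0.05734 TPM.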

How the results depend on the processing

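Of the 100 transcripts, the rule chose 51 again after TMM scaling, 47 with a pseudocount of 0.1 and 53 with a pseudocount of 5. It chose 93 with a lower and 77 with a higher count minimum, 70 with medians over libraries, 82 without the granulosa libraries numbered 1, and 90 to 97 leaving out each library in turn. The median gap was 1.01, 2.05 and 1.04 under the first 3 of these, and 1.515 to 1.703 leaving out each library. The 12 transcripts with no overlap became 1 after TMM scaling and 41 without the granulosa libraries numbered 1. Over all 14817 transcripts with enough counts the same 3 counts were 84, 4 and 517.

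Members called between follicle sizes and in the interactions numbered 0 under RLE factors, limma-voom, no filter and one fit of all 35 libraries. They also numbered 0 among transcripts with whole counts, where only 9 members were tested. In any comparison under these settings, at most 4 of all transcripts tested were called, so 0 members is near that background. Leaving out each library gave 0 to 0 members, and the calls over all are not given here. With the number in the title in the model (replicate block) members called were 0 as well, against at most 13 of 36437 over all. The pairing therefore changed no call among the members. Size comparisons with it gave, in the earlier order, 2, 0 and 3 members at an unadjusted p under 0.05 in granulosa (4.67%, 1.65% and 3.83% of all). They gave 0, 2 and 0 in oocytes (1.495%, 2.47% and 2.03%) and 2, 4 and 2 in cumulus cells (3.10%, 2.16% and 3.55%). DESeq2 gave 1 in the interactions of cumulus against granulosa (0.973% of all) and granulosa against oocyte (1.37% of all). Both were ENSMMUT00000012857.4 (DESeq2 adjusted p = 1.88e-06 and 1.01e-11). Its log2 value for granulosa against oocyte was 22.25 by DESeq2, -0.20 without the libraries over 0.2%, -0.2047 without granulosa large 1 and -0.2047 to 8.837 leaving out each library. That library holds nearly all granulosa counts of it in large follicles.

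The number test, and its alternatives, were chosen after seeing the data. The rule used the granulosa levels, so the granulosa calls are not independent of the choice. In granulosa its 10 calls became 0, 1 and 0 without the libraries numbered 1, 2 and 4 (0.102%, 0.149% and 0% of all), 10 without those numbered 3 (5.53%), and 2 without the libraries over 0.2% (0.453%). In oocytes its 1 call became 0 without number 1, 3 or 4 (0.038%, 0.031% and 0.00347% of all). Fewer samples were tested in each. At 16-fold, the simulated granulosa number test recovered 14% of changes. The spread of that simulation was estimated without the number in the model and so includes differences between numbers. The rate is therefore no measure of recovery in the real test.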
